A study of Caenorhabditis elegans with 2 samples.

Results

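The centriole and centrosome genes of Caenorhabditis elegans described here were 10 genes chosen by name for their roles, out of 19973 protein-coding genes in the annotation. They were the centriole assembly genes sas-4, sas-5 and sas-6, the kinase genes zyg-1, plk-1 and air-1, the pericentriolar matrix genes spd-2 and spd-5, and the gamma-tubulin complex genes tbg-1 and gip-1. Binding of EFL-1, a worm E2F transcription factor, was mapped at them by chromatin immunoprecipitation and sequencing. The chromatin came from whole L1 larvae, the first larval stage, with both sexes pooled. The larvae were of strain MT10430, which carries lin-35(n745), a mutation of the worm's retinoblastoma-type pocket protein gene. There were 2 biological replicates, numbered 2 and 3 in the labels, in 1 group, and no wild-type or other group was compared here. Both replicates shared the strain and its source, and age in hours was not given.

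Centrosomes are the main microtubule organizers of dividing animal cells, and much of what is known of their assembly was worked out in the C. elegans embryo. SPD-2 and the kinase ZYG-1 start a new centriole, SAS-5 and SAS-6 build its central tube, and SAS-4 brings microtubules to that tube. Around the centriole pair SPD-2, SPD-5 and the kinases PLK-1 and AIR-1 build the pericentriolar matrix, to which gamma-tubulin complexes dock to nucleate microtubules. E2F factors bind promoters of many genes of the cell division cycle, and with a pocket protein and the MuvB proteins they form the DREAM complex, which represses such genes in cells that do not divide.

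A gene was counted as bound when the summit of a peak in the authors' IDR list lay near 1 of its annotated 5' ends, at most 1000 bp before it or 500 bp after it. IDR weighs how well peak ranks agree between replicates. This list held 4534 peaks, which were the strongest regions of a joint list made from both replicates. By this rule 9 of the 10 centrosome genes were bound, against 3922 of 19973 protein-coding genes (19.6%), and gip-1 was not. The 9 genes had 10 IDR summits in their windows, since spd-5 had 2. No peak was shared between 2 of the 10 genes. The signal value is the authors' own and orders peaks only within a list. In the IDR list it ran from 46.3 to 9789, with a median of 125. Read depth is unknown, so no counting interval is given. Whole-larva chromatin mixes all cell types, and a weak peak may come from few cells or from weak occupancy, which cannot be told apart.

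The DNA under the summits is shown for 5 of these genes. The sas-4 peak was the strongest and holds a match to TTCCCGC. The 201 bases around the sas-5 summit hold both kinds of match marked below, though the E2F-type match runs past the end of the peak. The air-1 peak has a GCGCG match next to its summit, the plk-1 peak was strong without an E2F-type match, and the tbg-1 peak holds neither. At sas-4, air-1 and tbg-1 the 5' end of another gene was nearer to the summit. Each run is 201 bases on the gene's strand, with the summit at its middle base, from the RefSeq copy of WBcel235 (the assembly of ce11). Capitals mark matches to TTCCCGC or TTGGCGC or TTCGCGC (E2F-type) and to GCGCG, on either strand, so an overlap of matches appears as 1 longer run. The windows are chrIII:8319206-8319406 (minus strand), chrV:11610539-11610739 (plus), chrV:8221225-8221425 (plus), chrIII:8101077-8101277 (plus) and chrIII:9629921-9630121 (minus).
sas-4: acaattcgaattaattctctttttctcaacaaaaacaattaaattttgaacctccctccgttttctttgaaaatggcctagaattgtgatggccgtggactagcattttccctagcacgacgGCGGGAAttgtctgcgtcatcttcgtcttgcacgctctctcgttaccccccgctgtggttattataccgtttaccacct
sas-5: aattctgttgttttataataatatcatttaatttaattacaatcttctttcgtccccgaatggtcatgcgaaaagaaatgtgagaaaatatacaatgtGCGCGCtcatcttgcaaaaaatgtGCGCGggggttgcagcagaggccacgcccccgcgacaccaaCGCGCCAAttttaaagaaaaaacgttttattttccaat
air-1: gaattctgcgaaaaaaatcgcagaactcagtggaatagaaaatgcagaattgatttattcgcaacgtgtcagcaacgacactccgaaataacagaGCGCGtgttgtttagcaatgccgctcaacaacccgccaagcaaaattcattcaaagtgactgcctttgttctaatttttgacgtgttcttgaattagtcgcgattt
plk-1: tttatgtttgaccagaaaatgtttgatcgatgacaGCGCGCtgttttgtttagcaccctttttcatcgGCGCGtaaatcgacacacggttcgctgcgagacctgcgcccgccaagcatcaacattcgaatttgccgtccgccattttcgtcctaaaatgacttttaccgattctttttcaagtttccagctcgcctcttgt
tbg-1: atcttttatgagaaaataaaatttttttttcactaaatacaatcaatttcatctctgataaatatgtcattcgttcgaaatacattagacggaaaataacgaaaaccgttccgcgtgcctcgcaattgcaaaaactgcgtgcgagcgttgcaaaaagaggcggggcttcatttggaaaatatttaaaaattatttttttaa

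An E2F-type pattern lay within 100 bp of the summit of the strongest peak in 3 of the 9 bound genes. The same was true of 15.5% of all IDR peaks, of 32.2% of the 453 strongest, of 5.25% of windows of the same length centred 500 bp to either side, and of 4.85% of promoters (the 201 bases ending at each gene's outermost 5' end). In sas-4 the match was GCGGGAA, the other strand of TTCCCGC, at 22 to 28 bases past the summit. In sas-5 it was GCGCCAA, the other strand of TTGGCGC, at 64 to 70 bases past the summit. In spd-2 it was TTGGCGC on the gene's own strand, at 30 to 36 bases. TTCGCGC was found near none of the 9 summits, and it lay near 5.76% of IDR peaks.

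The shorter run GCGCG was counted only after these sequences had been seen. It lay within 100 bp of the strongest summit in 6 of the 9 genes, sas-5, sas-6, zyg-1, spd-2, air-1 and plk-1. Of all IDR peaks 39.1% held it, of the 453 strongest 57.2%, of the windows to the side 8.66% and of promoters 10.3%. GCGCG is contained in the reverse complement of TTCGCGC, so these patterns are not independent. The match at air-1 ended 1 base before the summit, at -5 to -1, and 1 match at sas-5 covered the summit, at -2 to 2. At zyg-1 it lay at -67 to -63. These positions are counted from the IDR summits. The replicate summits lay 30 bp apart at sas-5, 16 bp at zyg-1 and 8 bp at air-1. Together, E2F-type patterns or GCGCG were near 7 of the 9 strongest summits, 43.9% of IDR peaks and 64.0% of the 453 strongest, and sas-4 was the 1 gene of the 7 with no GCGCG. The strongest peak of spd-5 and the peak of tbg-1 had neither, while the second peak of spd-5 held CGCGC at -13 to -9. Patterns of the CHR type (TTTGAA or TTCGAA), which the MuvB protein LIN-54 recognizes, lay near 7 of the 9 summits, but also in 44.7% of IDR peaks, 53.3% of the windows to the side and 56.2% of promoters. A match is a run of letters, not a shown binding site.

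In the windows of the centriole assembly genes lay both the strongest and some of the middling peaks. All 3 genes were bound, against 19.6% of all protein-coding genes. With each peak given to its nearest gene only, 1 of the 3 was bound (14.7% of all genes). SAS-4 is the worm relative of human CPAP. The peak in its window ranked 33 of 4534 (chromosome III, 8319127 to 8319491, signal value 2382), with rank 34 in replicate 2 (signal value 1445) and 37 in replicate 3 (949). This summit lay 718 bp upstream of the 5' end of sas-4 (-718 bp in replicate 2 and -717 bp in replicate 3), and only 46 bp upstream of the next gene, F10E9.11, on the same strand. F10E9.11 is annotated by RefSeq as an rRNA-processing protein, and it ends 89 bp before sas-4 begins. Just before sas-4 itself, at -10 bp, the joint list held a weak region outside the IDR list, ranked 10432 of 21875 with a −log10 q value of 0.566. Replicate 2 had a region there, at -7 bp with rank 8666 of 25572, and replicate 3 had none in that place.

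SAS-5 and SAS-6 bind each other and are recruited together to the forming centriole. At sas-5 the peak ranked 2272 (chromosome V, 11610617 to 11610706, signal value 125), close to the middle of the IDR list, with ranks 2359 and 2035 in replicates 2 and 3 (signal values 72.0 and 56.4). Its summit was 98 bp upstream of the 5' end, at -68 bp in replicate 2 and -98 bp in replicate 3. The gap of 30 bp between replicate summits was the widest among the 9 genes. The summit was also 490 bp upstream of piit-1, a protease inhibitor gene on the other strand. At sas-6 the peak ranked 1756 (chromosome IV, 13788756 to 13788896, signal value 171), and the replicates placed it at 1502 and 2305 (signal values 122 and 48.7). Its rank differed 1.53-fold between replicates, more than at any of the other 8 genes. The summit lay 99 bp upstream of sas-6 and 77 bp upstream of Y45F10D.7 on the other strand, which RefSeq annotates as a protein of the small-subunit processome, the machinery of ribosome assembly. Only 175 bp separate these genes.

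All 3 kinase genes were bound, against 19.6% of all protein-coding genes. With each peak given to its nearest gene only, 2 of the 3 were bound (14.7% of all genes). Each summit lay between 112 and 171 bp upstream. PLK-1, a Polo-like kinase that acts in mitotic entry and in maturation of the centrosome, had the strongest of them, at rank 527 (chromosome III, 8101040 to 8101298, signal value 517), with ranks 599 and 446 in replicates 2 and 3 (signal values 276 and 235). The plk-1 summit, at -171 bp, was in the window of no other protein-coding gene. A non-coding RNA gene on the same strand, C14B9.15, had its 5' end 49 bp downstream of that summit. ZYG-1 is the kinase related to vertebrate PLK4 that triggers centriole duplication. Its peak ranked 1015 (chromosome II, 5649525 to 5649738, signal value 291), 1011 in replicate 2 and 975 in replicate 3 (signal values 175 and 121), a difference of 36 ranks. The summit lay at -112 bp from zyg-1, -166 bp from F59E12.17 (annotated as a subunit of the anaphase-promoting complex) and -350 bp from sam-4, the last 2 on the other strand. It also lay 56 bp past the 5' end of the non-coding RNA gene F59E12.14, on the other strand too. AIR-1 is the worm Aurora A kinase. Its peak ranked 2874 (chromosome V, 8221167 to 8221482, signal value 92.5), with ranks 2986 and 2684 in the replicates (signal values 53.6 and 39.7), and its summit was 163 bp upstream of air-1 but 9 bp upstream of cogc-6, a Golgi complex gene on the other strand. A snoRNA gene, K07C11.11, also had this summit in its window. The 5' ends of zyg-1 and plk-1 were the nearest coding ones to their summits, and that of air-1 was not.

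**Figure D1:**
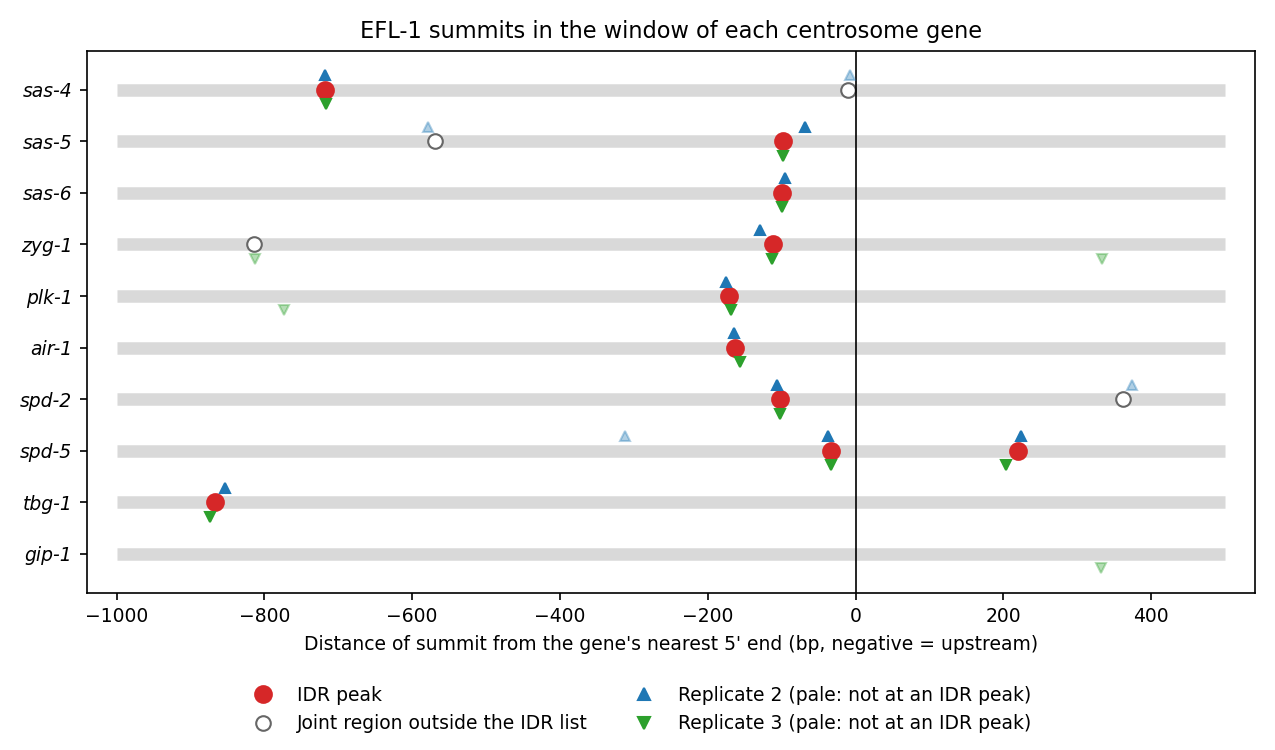
Positions of EFL-1 summits from 1000 bp upstream to 500 bp downstream of the 5' ends of the 10 centrosome genes, with the horizontal axis in bp from the nearest 5' end of the gene. Red discs are IDR peaks, open discs weaker joint regions, and triangles the regions of each replicate; the IDR summits of sas-4 and tbg-1 lie at -718 and -867 bp, and gip-1 has only a weak region of replicate 3.

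Both pericentriolar matrix genes were bound, at unlike strengths, against 19.6% of all protein-coding genes. Both stayed bound with each peak given to its nearest gene only (14.7% of all genes). SPD-5 is the coiled-coil protein that forms the matrix scaffold. Its gene had 2 annotated 5' ends and an IDR peak near each. The stronger peak ranked 544 (chromosome I, 5176291 to 5176562, signal value 504), 495 in replicate 2 and 593 in replicate 3 (signal values 324 and 189), with its summit 220 bp past the outer 5' end, in an intron. This was the 1 strongest summit of the 9 that lay downstream of its 5' end. The second spd-5 peak ranked 1799 (chromosome I, 5175632 to 5175868, signal value 167), 1684 and 2031 in the replicates (109 and 56.5), and lay 33 bp upstream of the inner 5' end, which is also in an intron of the longer transcript. The stronger peak was in the window of the nuclear pore gene npp-6 too, 395 bp upstream of it, and the second in that of no other gene. SPD-2, the worm relative of CEP192, is needed both for centriole duplication and for the matrix. Its peak was the weakest of the 9, at rank 3242 (chromosome I, 8970025 to 8970340, signal value 78.1). It ranked 2920 in replicate 2 (signal value 55.2) and 4159 in replicate 3 (21.5), where its −log10 q value was 3.44, below the 3.90 of every other strongest peak of these genes in that replicate. The summit lay at -102 bp from spd-2, -108 bp from F32H2.10 and -956 bp from thoc-3, the last 2 on the other strand. F32H2.10 carries an Integrator complex domain by its RefSeq name.

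The gamma-tubulin complex genes had no IDR summit within 300 bp of their own 5' ends. Gamma-tubulin, the product of tbg-1, and GIP-1, a relative of human GCP3, are parts of the complex from which microtubules grow. The peak in the window of tbg-1 ranked 2414 (chromosome III, 9629954 to 9630051, signal value 116), with ranks 2438 and 2542 in the replicates (signal values 69.4 and 42.4). It lay 867 bp upstream of tbg-1 and 136 bp upstream of rpac-19, a gene on the same strand for a subunit of RNA polymerases I and III that ends 91 bp before tbg-1 begins. At gip-1 neither the IDR list, the joint list nor replicate 2 had a summit in the window. Replicate 3 had 1 weak region there, at 332 bp past the 5' end, ranked 11581 of 27203 with a −log10 q value of 0.493. The nearest IDR summit upstream of gip-1 lay 16163 bp away and ranked 133. It belonged to ppm-1.D, 144 bp upstream of that phosphatase gene's 5' end. The genes ppm-1.D, phf-5 and gip-1 follow each other on the same strand, with 349 and 261 bp between them, and phf-5 had no IDR summit in its window.

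The IDR peaks were the 4534 strongest regions of the joint list, which was made from both replicates. High ranks in both replicates were thus partly built into the list, and the closeness of the replicates is given only as a description. Over the 9 strongest peaks the replicate summits were 1 to 30 bp apart (median 8 bp), against a median of 13 bp over the 4525 IDR peaks found in both replicate lists. The larger of the 2 replicate ranks was 1.04 to 1.53 times the smaller (median 1.16), against a median of 1.17 over all these IDR peaks. Each of the 9 peaks was among the 4534 strongest regions of both replicates. With 2 samples in 1 group there was no contrast to test, and the members were chosen with results of these data known, so no p-value is given.

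**Figure D2:**
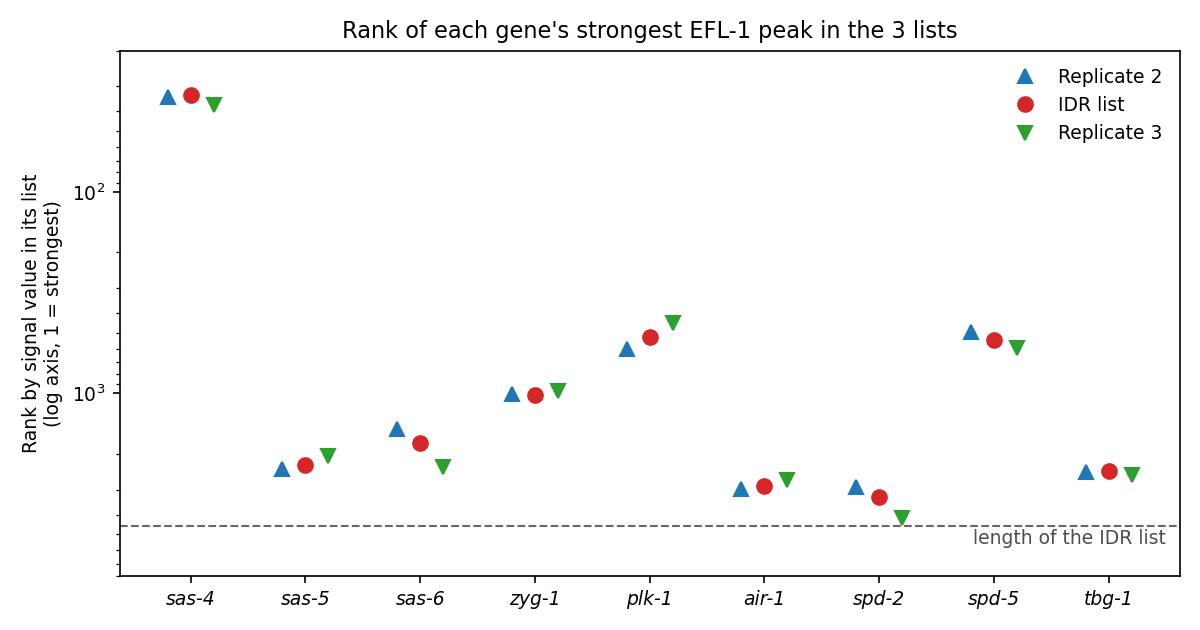
Rank by signal value (log axis, strongest at the top) of the strongest peak of each of the 9 bound centrosome genes in replicate 2, the IDR list and replicate 3; the dashed line is the length of the IDR list. The sas-4 peak lies at ranks 33 to 37 in all lists. The gaps between replicates are widest at sas-6 (rank 1502 in replicate 2 and 2305 in replicate 3) and spd-2 (2920 and 4159). At the other genes smaller gaps go in both directions.

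In strength the bound centrosome genes were spread through the list. The median percentile of their strongest peaks in the IDR list (the share of peaks with a lower signal) was 61.3, and the median over all 3922 bound protein-coding genes was 60.2. The order from strong to weak was sas-4, plk-1, spd-5, zyg-1, sas-6, sas-5, tbg-1, air-1 and spd-2, with percentiles from 99.3 to 28.5. The neighbours plk-1 (527) and spd-5 (544) were in the opposite order in replicate 2, where they ranked 599 and 495. Likewise sas-6 stood above sas-5 in replicate 2 and below it in replicate 3. In replicate 2 spd-2 stood above air-1.

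Most of these peaks lay in the window of more than 1 gene. In 8 of the 9 genes the strongest summit was also in the window of another protein-coding gene, against 51.3% of all bound genes, and plk-1 was the exception. With windows of 300 bp to either side the count was 4 of the 7 genes then bound, and the share over all bound genes is not given for that window. The summits of sas-4 and tbg-1 lay before the same-strand gene upstream and not between the genes, and that of spd-5 lay in its own intron. In 4 of the 9 (sas-4, sas-6, air-1 and tbg-1) another gene's 5' end was nearer, against 26.2% of all bound genes. Of the 10 genes 6 had their upstream neighbour on the opposite strand, a share of 60.0%, against 46.2% of all protein-coding genes and 64.7% of bound ones, and all 6 were bound. In the genome 27.5% of genes with an opposite-strand upstream neighbour were bound and 12.9% of those with a same-strand one. The median gap to the upstream neighbour, on either strand, was 192 bp for the 10 genes, 608 bp for bound genes and 937 bp for all genes. These neighbour values were computed after the peaks had been seen. The median distance from the 5' end to the strongest summit was -112 bp for the centrosome genes and -213 bp over all bound genes. Position cannot say on which of the genes EFL-1 acts.

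The count depended on how a peak was given to a gene and on the strength asked of it. It was the same with either replicate alone, but the IDR list was made from both, so these counts are not independent. Giving each peak to the gene with the nearest 5' end left 5 of the 10 genes bound (sas-5, zyg-1, spd-2, spd-5 and plk-1), against 14.7% of all genes. A window of 300 bp to either side kept 7 (12.9% of all genes), losing sas-4 and tbg-1, and the stronger 2267 peaks of the IDR list kept 5 (11.8%), sas-4, sas-6, zyg-1, spd-5 and plk-1. The count stayed at 9 with the outermost 5' end of each gene (18.5% of all genes), with any overlap of peak and window (20.5%), in the whole joint list (42%), and in joint regions with a −log10 q value over 2 (24%). It was also 9 in the 4534 strongest regions of replicate 2 alone (19.6%) and of replicate 3 alone (19.4%). In each of these 6 the gene left out was gip-1.

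**Figure D3:**
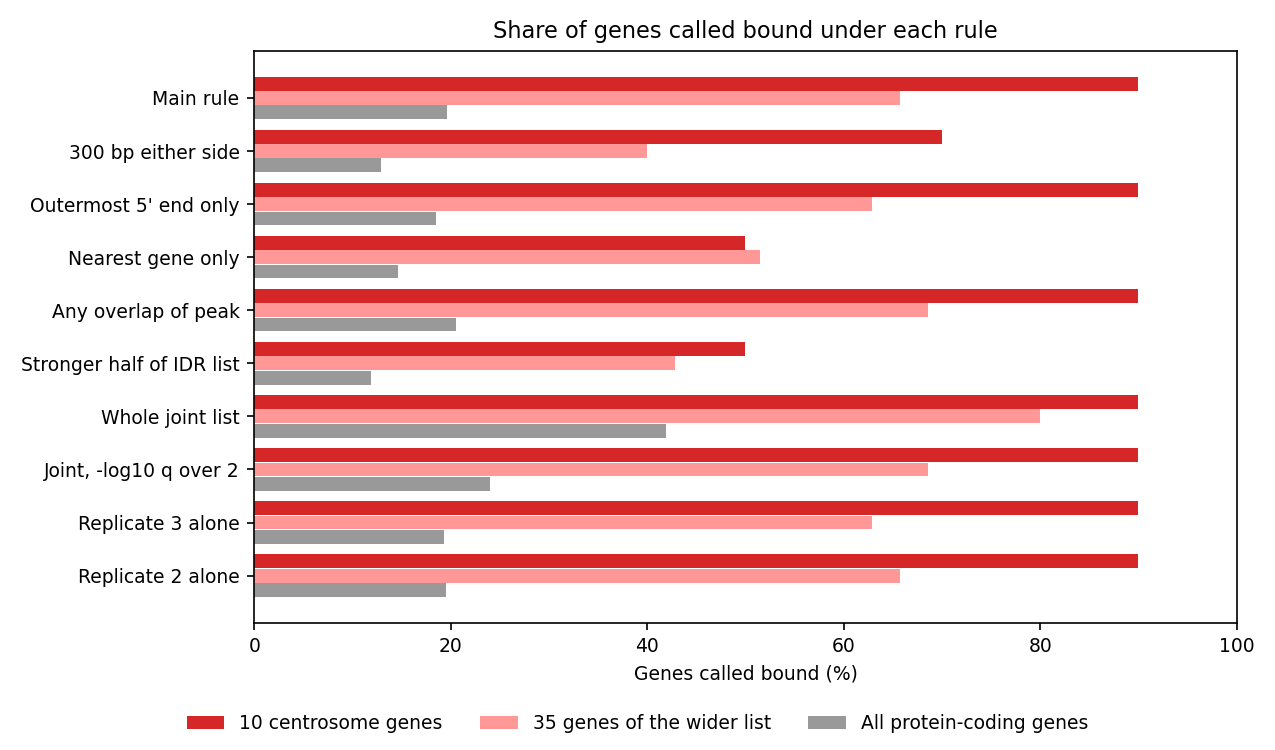
Percentage of genes called bound under each of 10 rules, for the 10 centrosome genes, the 35 genes of the wider list and all 19973 protein-coding genes. The centrosome genes stand at 50 to 90% and all genes at 11.8 to 42.0%.

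A wider list of 35 centrosome, spindle pole and tubulin genes, chosen by role, had 23 bound (65.7%), against 19.6% of all protein-coding genes, with the median strongest peak at percentile 67.9. The count was 14 within 300 bp (12.9% of all genes) and 15 in the stronger 2267 peaks (11.8%). Other centriole genes were bound in 2 of 3 cases. HYLS-1, a centriole protein needed for cilia, had a peak of rank 73 at -54 bp (ranks 74 and 75 in the replicates) that was shared with hpo-9, while the stronger of 2 peaks at sas-7 ranked 4270. The third, sas-1, had none. Among matrix genes 4 of 6 were bound, led by rsa-2 (rank 828), which helps bring a phosphatase to the centrosome, by pcmd-1 (rank 1647), which tethers the matrix to the centriole, and by tac-1 (rank 3473), the TACC protein gene. With each peak given to its nearest gene only, the count was 3 of 6 (14.7% of all genes). The tac-1 peak was shared with Y54E2A.4, and tac-1 was not the nearest gene to its summit. zyg-9, the XMAP215 relative that works with TAC-1, ranked 3927, and rsa-1 and tpxl-1 had no IDR summit. In the gamma-tubulin complex mzt-1 was bound (rank 1374, at -514 bp, nearer to enu-3.3) and gip-2, the GCP2 relative, was not. Of its 4 genes in both lists none was the nearest gene to an IDR summit in its window.

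Regulators of centriole duplication were bound in 6 of 9 cases, against 19.6% of all protein-coding genes, and in 4 of 9 when each peak went to its nearest gene only (14.7% of all genes). The RNA-binding gene szy-20, which limits ZYG-1, ranked 43 (43 and 48 in the replicates), with its summit at -137 bp and the peak shared with C18E9.5. Its partner in that role, the ataxin-2 gene atx-2, had 3 IDR summits, the strongest at rank 356. The F-box gene lin-23 followed at rank 458, with its summit 939 bp upstream. The gene of the phosphatase scaffold subunit, paa-1, ranked 805 (804 and 811 in the replicates), with its summit nearer to F48E8.8. The genes of the other phosphatase subunits listed with it, sur-6 and let-92, and the APC/C activator gene fzr-1 had no IDR summit and only weak joint regions, ranked 9048, 14498 and 9698. Of the kinases and kinase partners 2 of 4 were bound, spat-1 (rank 1235), which activates PLK-1, and the Aurora B gene air-2 (rank 2127). The Polo-like genes plk-2 and plk-3 had no summit of any strength in their windows in the joint list.

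Of 7 genes that act on microtubules at the centrosome and the nucleus 5 were bound, against 19.6% of all protein-coding genes. The count stayed at 5 with each peak given to its nearest gene only (14.7% of all genes). Of the 5 genes 4 were in the weaker part of the list. The kinesin gene klp-7 ranked 944, while ptrn-1 stood at 3112 and lis-1 at 3618, and dhc-1 and noca-1 were lower still. zyg-12, which ties the centrosome to the nucleus, and zyg-8 had no joint region in their windows. Of 4 tubulin genes 3 were bound, and 2 with each peak given to its nearest gene only. The alpha-tubulin gene tba-2 had rank 27, stronger than any of the 10 centrosome genes, at -139 bp and with ranks 30 and 23 in the replicates. tbb-1 ranked 634 and tbb-2 1895. The tbb-1 peak was shared with rib-2, and tbb-1 was not the nearest gene to its summit. tba-1 missed the IDR list, with a joint region at rank 4779 of 21875 whose −log10 q value was 3.99, as in the IDR peaks.

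**Figure D4:**
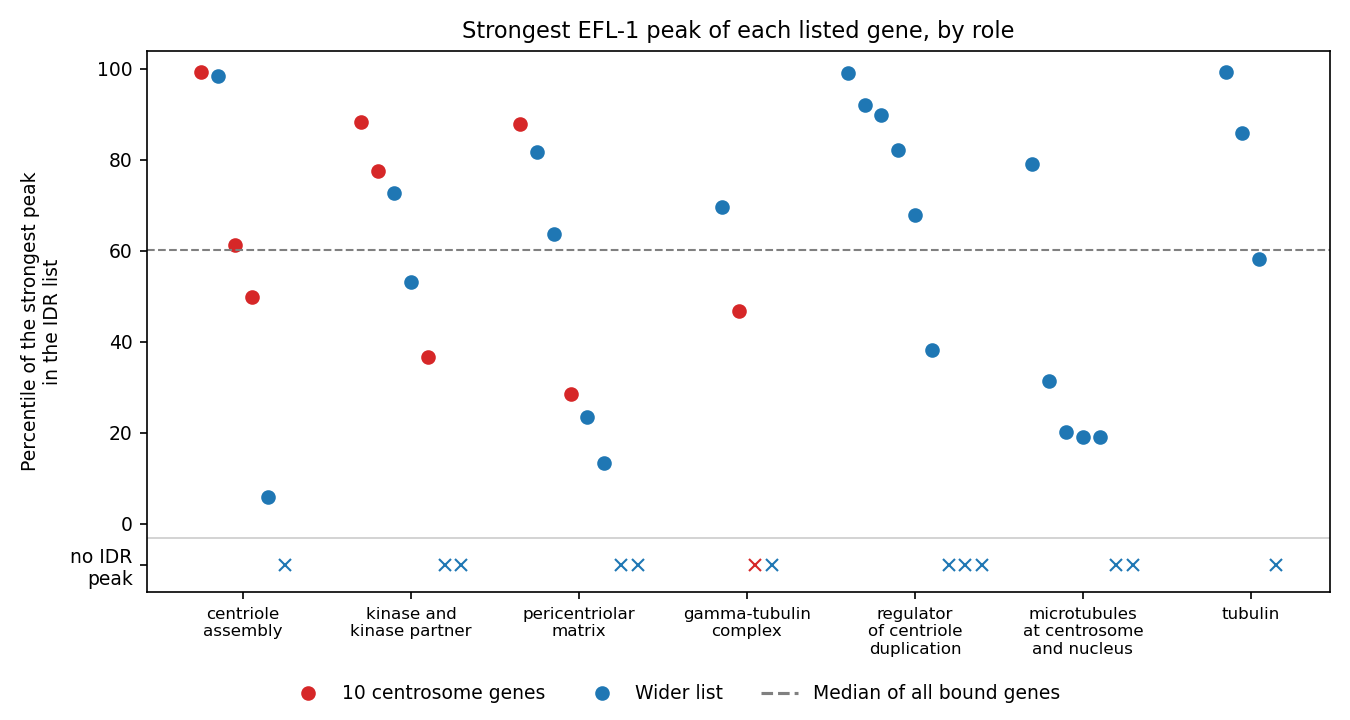
Percentile of the strongest EFL-1 peak in the IDR list (vertical axis, 100 strongest) for the 10 centrosome genes in red and the 35 genes of the wider list in blue, by role. Crosses are genes with no IDR summit in the window, and the dashed line is the median over all bound genes, 60.2.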

How the data were processed

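EFL-1 binding was analysed from 4 deposited peak lists on ce11, in narrowPeak form, for 2 biological replicates. Per the deposited description texts, the authors made each replicate's list (25572 and 27203 regions) from its own alignments with a control, the joint list (21875, weak regions kept) from both, and selected the IDR list from the latter, whose strongest regions its 4534 peaks were. The signal value and the −log10 q value of each peak are the authors' own, as deposited. The sources used here do not give the aligner, peak caller, thresholds or depth. The 4 lists on ce10 were not used.

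Positions count from 1, and a summit is the deposited offset. Genes came from Ensembl release 115 (WBcel235, which held every peak), with 29314 distinct 5' ends over all protein-coding genes. These were the 5' ends of protein-coding transcripts. Product names and sequence came from RefSeq. All 45 listed genes matched. Scripts used Python 3.11.15 and numpy 2.4.6, were tested on simulated data, and made no statistical test. Alternatives changed the window, 5' ends, list, threshold, overlap, pattern width or replicate. All 10 genes are named, as are genes sharing their IDR peaks, and of the wider list up to 3 strongest bound genes per role, with genes outside the IDR list; other wider-list genes were named after their values were seen. The members and lists were chosen with earlier results of these data known. GCGCG was chosen after the sequences were seen. Annotated 5' ends in worms are often trans-splice sites, so the start of transcription may lie farther upstream.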

Additional observations from a re-analysis of the deposited data

How the results depend on the processing

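The number of centrosome genes bound, 9, was within 1.5 times that value under 7 of 9 alternatives, and moved to 5 with nearest genes only and to 5 in the stronger 2267 peaks. The wider list's 23 moved to 14 within 300 bp and to 15 in the stronger 2267 peaks. The median percentile of the strongest peaks, 61.3, moved to 77.6 with nearest genes only, since sas-6, air-1, tbg-1 and sas-4 drop out. The count of shared peaks, 8 of 9 bound genes, moved to 4 of 7 within 300 bp, where the windows are smaller. Without replicate 2 or 3 in turn, the median distance ran from -129 to -113 bp, 9 genes stayed bound each time, and the wider list had 22 or 23. The E2F-type count was 2 or 3 and the GCGCG count 5 to 7 under all alternatives tried. No read totals were given, so depth limits cannot be stated.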

Other observations

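Some genes with no IDR summit in their window followed a gene that had one, on the same strand. gip-2, the partner of gip-1, overlaps the end of lipt-1 (a gap of -22 bp), and the peak of lipt-1 ranked 271. tpxl-1, whose product activates AIR-1, begins 115 bp after icp-1, the gene of a chromosomal passenger protein, whose peak ranked 1665. sas-1 begins 1244 bp after spin-4 (rank 298). Among the 45 listed genes 5 had no IDR summit and a same-strand upstream neighbour (gip-1, gip-2, tpxl-1, sas-1 and plk-2), and in 3 of these the neighbour was bound. Over all protein-coding genes of this kind it was bound in 1795 of 9350 (19.2%). Together with sas-4 and tbg-1, whose peaks lay before F10E9.11 and rpac-19, these genes were noticed after the values were seen. Many worm genes are transcribed together from 1 promoter in operons. Operons were not annotated in the files used, and whether these genes share a transcript was not tested.

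Of the 10 centrosome genes 4 are on chromosome III, which holds 13.2% of protein-coding genes, and 0 are on the X chromosome, which holds 13.7%. In the wider list 10 of 35 are on chromosome III, 13 on chromosome I and 1, ptrn-1, on X. The windows around the 9 strongest summits were 29.4 to 48.8% G and C (median 39.8%), against a median of 42.3% over all IDR peaks.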
